A study of Mus musculus with 6 samples.

Results

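The genes examined here encode the ligands and receptors of 2 families of secreted survival and growth factors, the neurotrophins and the GDNF family. The 8 genes, Bdnf, Ntf3, Gdnf, Ntrk2, Ntrk3, Gfra1, Gfra2 and Ret, were taken by symbol from a table of 55416 genes, each symbol matched a single row, and all 8 passed the filter on low counts that left 23628 genes for testing. RNA came from mouse ganglionic eminences at E13.5 (embryonic day). The eminences are the bulges of the ventral forebrain that give rise to striatal neurons and to the interneurons that migrate into the cortex. A group of 3 wild-type libraries was compared with 3 libraries from littermates with a double knockout of Dlx1 and Dlx2, genes of homeodomain transcription factors of this region. The labels do not give the strain, the alleles or the sex, nor do they say whether each library came from a single embryo, so p-values measure the spread between these libraries, part of which may be technical.

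Neurotrophins bind Trk receptor tyrosine kinases, Bdnf protein mainly the product of Ntrk2 (TrkB) and Ntf3 protein mainly that of Ntrk3 (TrkC). GDNF family ligands first bind a GFR-alpha co-receptor anchored to the membrane, GDNF that of Gfra1 and neurturin that of Gfra2, and the complex then engages the receptor tyrosine kinase Ret or, for some cells, the adhesion molecule NCAM. In the embryonic ventral forebrain, signalling through TrkB and through GDNF with its co-receptor is known to act on migrating interneurons.

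Of the 8 genes, 1 differed between the genotypes. Gfra2 fell to 65.7% of its wild-type mean, while the other receptor and ligand genes did not pass the test. Genes were called where the p of the quasi-likelihood test in edgeR, adjusted over all tested genes by Benjamini-Hochberg, was under 0.05, and 2.68% of them were, 1.34% being lower in the double knockout. Levels are given as CPM, the read count scaled to library size with the trimmed mean of M values (TMM), as mean ± SD over 3 libraries. At an unadjusted p under 0.05, 3 of the 8 genes passed (Gfra2, Ntrk3 and Ret), against 13.3% of all tested genes. The same 3 genes were the ones whose libraries did not overlap between genotypes, which was so for 19.5% of all tested genes. DESeq2, an alternative count test, called these 3 genes too, and called 5.34% of the genes to which it gave an adjusted p. The median log2 fold change over the 8 genes was 0.042 and the median size of the change 0.45, beside -0.0016 and 0.13 over all tested genes. The 8 include the low-count genes Ntf3 and Gdnf, whose changes had an SE of 0.305 and 0.443. They were also chosen with earlier results of these data known, so the medians show no difference from other genes.

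**Figure D1:**
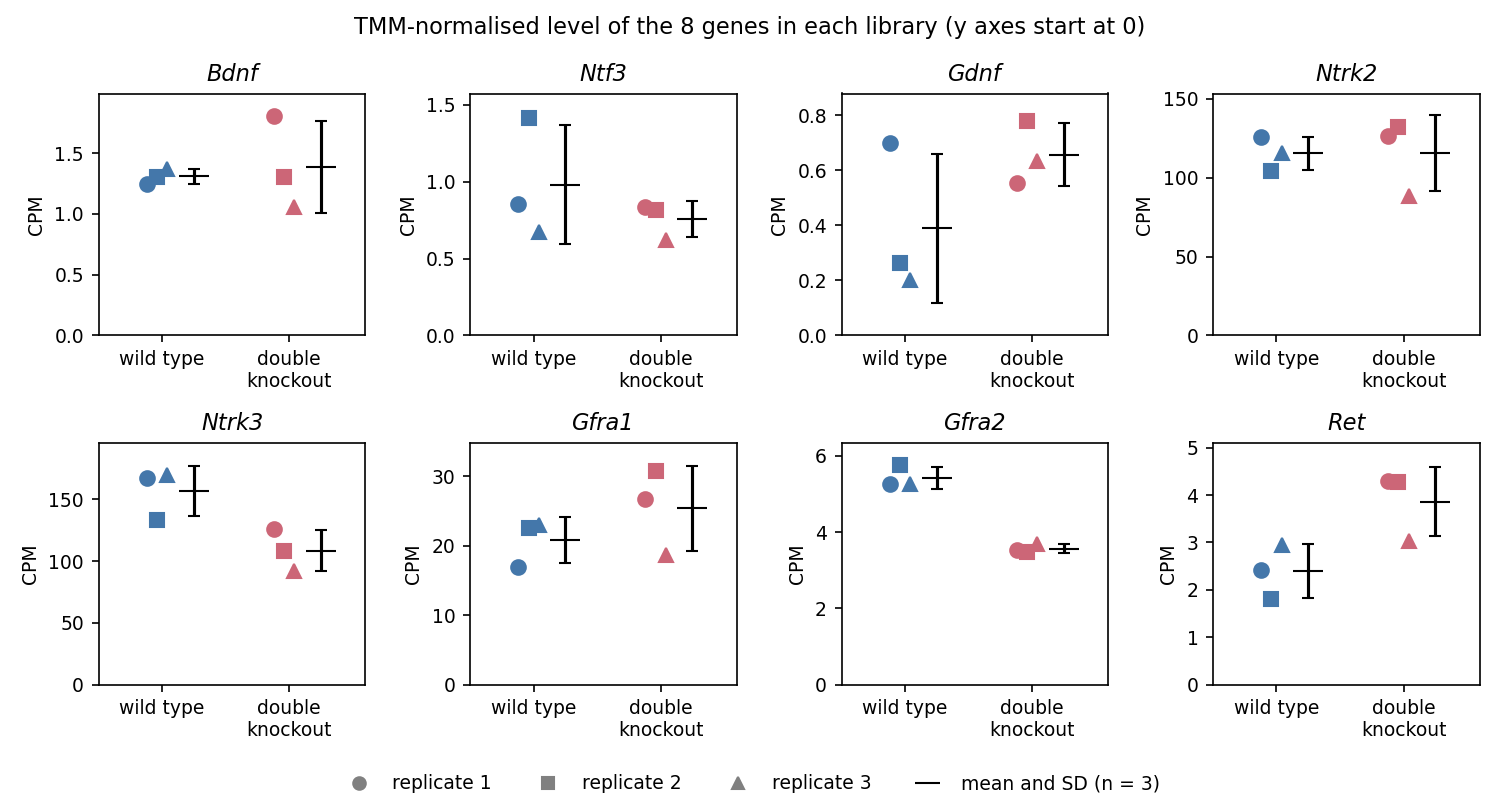
Level of each gene (CPM, y axis from 0) in the 3 wild-type (blue) and 3 double knockout (red) libraries, with marker shapes for replicate numbers and black bars for mean and SD. The genotypes are apart without overlap for Ntrk3, Gfra2 and Ret, with Ret the one of these that is higher in the double knockout.

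Total counts were between 56618090 and 70114173 per library, and 3 reads corresponded to 0.0428 to 0.053 CPM. The targeted genes matched the labels, with Dlx1 at 434.0 to 445.7 CPM in wild-type libraries and 74.9 to 94.0 CPM in the double knockout, and Dlx2 at 281.8 to 313.3 and 7.50 to 11.0 CPM. Gad2, a marker of the GABAergic lineage of this tissue, was present in every library and fell, from 319.2 to 325.5 CPM in the wild type to 122.3 to 128.2 CPM in the double knockout (edgeR adjusted p = 4.39e-06). No libraries were copies of each other. Double knockout replicate 3 stood apart from replicates 1 and 2, with a chi-square statistic per gene of 29.7 to 36.4 against them, where those 2 differed from each other by 13.1 and wild-type libraries by 20.4 to 21.7. The RNA of Xist, which coats the silenced X chromosome, was abundant in double knockout replicate 1 and in 2 wild-type libraries, replicates 2 and 3, and Y-linked genes were expressed in the other 3 libraries, which leaves 1 library on one side of either comparison. Among the libraries of each pattern, as over all 6, Gfra2 and Ntrk3 were lower and Ret higher in the double knockout. Since the genotypes did not overlap for these genes, this had to hold within each pattern. It does not test the part of sex.

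The summed levels of several marker lists did not overlap between genotypes. Of 11 markers of the ganglionic eminence itself, 9 were called, 3 higher and 6 lower, and their sum was 1733 to 1801 CPM against 1260 to 1472 CPM. The summed level of 6 neuronal markers was 5643 to 6122 CPM in wild-type libraries and 4598 to 5311 CPM in the double knockout, and 1 of the 6, Elavl3, was called lower. For 6 progenitor markers it was 2256 to 2630 and 2642 to 3306 CPM, with 1 gene, Hes5, called higher. All 7 markers of migrating cortical interneurons were called lower, and their sum went from 631.8 to 686.0 CPM down to 258.5 to 326.7 CPM. Among 5 markers of the neighbouring hypothalamus, Otp was called higher and the sum was 25.3 to 47.5 CPM against 131.4 to 165.6 CPM. The separation of these sums came from Otp, at 5.27 to 11.96 CPM in wild-type libraries and 112.9 to 121.3 CPM in the double knockout. Fezf1, Sim1 and Pomc each overlapped between genotypes and were not called, and Nkx2-4 had at most 0.0312 CPM in any library. The sum of 6 markers of peripheral neurons and glia was 10.3 to 12.4 CPM and 14.6 to 18.7 CPM; only Sox10, also a gene of oligodendrocyte precursors, was called, and Prph, a gene of peripheral neurons, was at 0.0308 to 0.173 CPM. Of 6 cortical excitatory markers 1 was called lower, with sums of 866.6 to 883.3 CPM and 661.6 to 698.0 CPM. Of 5 cholinergic markers Lhx8 was called lower, with sums of 69.4 to 79.7 CPM and 32.2 to 47.6 CPM, while Chat itself stayed at 0.171 to 0.399 CPM. All 5 oligodendrocyte lineage markers were called higher, with sums of 65.2 to 66.6 CPM and 126.9 to 168.7 CPM. The sums of endothelial, pericyte, meningeal, microglial and blood markers overlapped between genotypes and none of their genes was called. Choroid plexus sums overlapped too, at 14.3 to 37.7 and 34.8 to 39.5 CPM, though Otx2 of that list rose. The part of any of these in the results below was not tested, and in bulk tissue fewer cells of a type and less RNA per cell cannot be told apart.

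Levels of different genes were compared per kb of exon, with exon lengths from the GENCODE M21 annotation of an earlier mouse build than the authors'. Each length joins the exons of all annotated transcripts of a gene, 30170 bases for Ntrk3, 19292 for Ntrk2 and 5476 for Gfra1. This can exceed the length of any single transcript, so the order between genes depends on it. In the wild type, the Trk receptor genes were highest, Ntrk2 at 5.98 ± 0.556 CPM per kb (SD, n = 3) and Ntrk3 at 5.20 ± 0.673, and these 2 overlapped between libraries. Gfra1 followed at 3.80 ± 0.607 and Gfra2 at 1.53 ± 0.0818 CPM per kb, each apart from its neighbours. Ntf3, at 0.572 ± 0.227 CPM per kb, and Ret, at 0.354 ± 0.0845, overlapped. Bdnf at 0.210 ± 0.0101 and Gdnf at 0.106 ± 0.0737 CPM per kb came last, with no overlap between them. The GDNF signalling receptor Ret was thus present at a lower length-scaled level than both of its co-receptor genes. In the double knockout the order changed at 2 places. Gfra1, at 4.63 ± 1.12 CPM per kb, lay above Ntrk3, at 3.60 ± 0.556, and Ret, at 0.571 ± 0.107, above Ntf3, at 0.441 ± 0.0688, but the libraries of each of these pairs overlapped. Without division by length, Ntrk3 lay above Gfra1 in the double knockout, at means of 108.5 and 25.4 CPM.

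**Figure D2:**
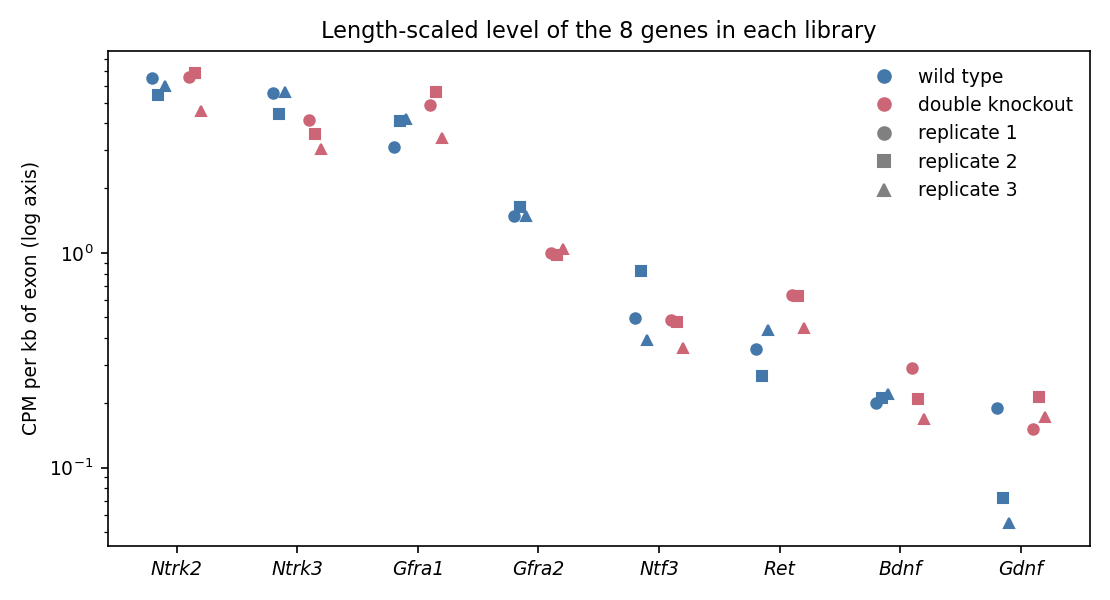
Length-scaled level of the 8 genes (CPM per kb of exon, log axis) in each library, blue for wild type and red for double knockout, ordered by the wild-type mean. The Trk receptor genes and Gfra1 lie above the other genes, and Bdnf and Gdnf lowest.

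The ligand genes were all weakly expressed. Bdnf (ENSMUSG00000048482, chromosome 2) was at 1.25, 1.31 and 1.37 CPM in wild-type replicates 1 to 3 and at 1.80, 1.30 and 1.05 CPM in double knockout replicates 1 to 3. Its double knockout libraries lay on both sides of the tight wild-type ones, with replicate 1 the highest of all 6 and replicate 3 the lowest. For Bdnf, edgeR gave 0.081 as the log2 fold change (SE 0.223, 95% interval -0.43 to 0.59) and 0.929 as the adjusted p. The direction turned without double knockout replicate 1, to -0.16, and the fold change was 0.26 without double knockout replicate 3. An antisense gene, Gm45346, overlaps exons of Bdnf and had 0 to 4 reads per library. Since it is not stated whether counting used strand, the counts of Bdnf are uncertain there.

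Ntf3 (ENSMUSG00000049107, chromosome 6) was at 0.853, 1.42 and 0.670 CPM in wild-type libraries and at 0.832, 0.815 and 0.620 CPM in the double knockout. Wild-type replicate 2 was the only library above the others, and the remaining 5 overlapped. For Ntf3, edgeR gave -0.38 as the log2 fold change (SE 0.305, 95% interval -1.07 to 0.32) and 0.697 as the adjusted p, and the fold change was -0.012 without wild-type replicate 2. Gdnf (ENSMUSG00000022144, chromosome 15) had the fewest reads of the 8 genes, 41, 17 and 13 in the wild type and 36, 45 and 44 in the double knockout. This was 0.700, 0.264 and 0.203 CPM against 0.555, 0.781 and 0.634 CPM, so wild-type replicate 1 lay among the double knockout libraries and the other 2 below them. For Gdnf, edgeR gave 0.76 as the log2 fold change (SE 0.443, 95% interval -0.25 to 1.77) and 0.543 as the adjusted p. Without wild-type replicate 1 it was 1.48, with an adjusted p of 0.129. That library was also the one with Ttr, an abundant choroid plexus transcript, at 26.3 CPM, where the other 5 had 0 to 0.156 CPM, and it had the highest levels of the choroid gene Folr1 (0.546 CPM) and the meningeal gene Lum (0.614 CPM). Of the other genes of the choroid and meningeal lists, Col1a1, Col1a2, Col3a1 and Dcn were also highest there. Kl and Foxc1 were highest in double knockout libraries, and Otx2 was lowest in wild-type replicate 1, at 10.4 CPM. The double knockout libraries had the Gdnf levels above with Ttr at 0.0577 to 0.139 CPM. The part of such tissue in the Gdnf reads of wild-type replicate 1 was not tested.

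The genes of other ligands had few reads as well. Nrtn, which encodes the Gfra2 ligand neurturin, was at 0.310 ± 0.147 CPM in wild-type libraries and 0.288 ± 0.0775 CPM in the double knockout, and Pspn (persephin) at 0.479 ± 0.134 and 0.434 ± 0.198 CPM. Artn (artemin) was at 0.181 ± 0.0593 and 0.185 ± 0.0410 CPM. None of these 3 passed the test, with adjusted p between 0.923 and 0.984 in edgeR. Ntf5, the other TrkB ligand, had 0 to 3 reads and Gdf15 3 to 10 reads per library, too few to be tested.

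Gfra2 (ENSMUSG00000022103, chromosome 14), the neurturin co-receptor gene, was at 5.26, 5.76 and 5.25 CPM in wild-type libraries and at 3.53, 3.47 and 3.69 CPM in the double knockout, with 308 to 370 and 200 to 256 reads. The libraries of each genotype lay close together and the 2 groups were well apart. For Gfra2, edgeR gave -0.61 as the log2 fold change (SE 0.11, 95% interval -0.86 to -0.36) and 0.0246 as the adjusted p. The size of the change varied little with the libraries used, between -0.63 and -0.56 when each was left out in turn, but the call was lost in 5 of those 6 fits, with adjusted p of 0.0748 to 0.104, and remained without double knockout replicate 3, at 0.035. It was also lost with Y-linked expression as a covariate, at a log2 fold change of -0.60 and an adjusted p of 0.0976.

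Gfra1 (ENSMUSG00000025089, chromosome 19), the GDNF co-receptor gene, was at 17.0, 22.5 and 22.9 CPM in wild-type libraries and at 26.8, 30.7 and 18.7 CPM in the double knockout. Double knockout replicates 1 and 2 were above all wild-type libraries and replicate 3 was within their range. For Gfra1, edgeR gave 0.28 as the log2 fold change (SE 0.183, 95% interval -0.13 to 0.70) and 0.592 as the adjusted p. It was 0.47 without double knockout replicate 3, with an adjusted p of 0.13, while without wild-type replicate 1 it was 0.16 and without double knockout replicate 2 it was 0.13. The antisense gene Gm16277 overlaps exons of Gfra1 and had 0 reads in every library, but the counts of Gfra1 are uncertain there as well.

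Gfra1 and Gfra2 are paralogues, so their transcripts in GENCODE M21 were compared to see how far reads could be shared. No word of 50 bases occurred in both. The read length is not given in the sources used here, but reads of 50 bases or more without errors would fit only one of the genes.

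Ret (ENSMUSG00000030110, chromosome 6), the receptor tyrosine kinase gene shared by all GDNF family ligands, was at 2.42, 1.80 and 2.95 CPM in wild-type libraries and at 4.30, 4.27 and 3.03 CPM in the double knockout. The genotypes did not overlap, but wild-type replicate 3 and double knockout replicate 3 were nearly equal. For Ret, edgeR gave 0.69 as the log2 fold change (SE 0.213, 95% interval 0.20 to 1.18) and 0.178 as the adjusted p. DESeq2 gave an adjusted p of 0.0397 for Ret, while the edgeR fits without a library gave 0.0676 to 0.397, the lowest without double knockout replicate 3. The hypothalamic list genes Sim1 and Fezf1 had their lowest library of each genotype in the same places as Ret, wild-type replicate 2 and double knockout replicate 3. Sim1 was at 11.1, 3.95 and 11.8 CPM in wild-type libraries and at 20.7, 16.9 and 2.96 CPM in the double knockout, and Fezf1 at 16.9, 15.1 and 22.7 CPM and at 22.3, 27.1 and 6.04 CPM. The other tested genes of that list were both lowest in wild-type replicate 2 but not in double knockout replicate 3, Otp at 121.3, 112.9 and 121.0 CPM and Pomc at 1.37, 0.971 and 1.36 CPM in the double knockout. The sums of hypothalamic, peripheral and neuronal markers were also lowest in wild-type replicate 2 and double knockout replicate 3 among the libraries of their genotype. The part of these in the level of Ret was not tested. With those 2 libraries left out, an alternative chosen after the data had been seen, the log2 fold change of Ret was 0.68 with an adjusted p of 0.0966.

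Ntrk2 (ENSMUSG00000055254, chromosome 13), the TrkB gene, was at 125.9, 104.5 and 115.7 CPM in wild-type libraries and at 126.5, 132.1 and 88.3 CPM in the double knockout. The genotypes overlapped over most of their range, and double knockout replicate 3 was the lowest library. For Ntrk2, edgeR gave 0.0032 as the log2 fold change (SE 0.14, 95% interval -0.32 to 0.32) and 0.997 as the adjusted p. Without double knockout replicate 3 it was 0.17 (SE 0.0708), with an adjusted p of 0.319.

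Ntrk3 (ENSMUSG00000059146, chromosome 7), the TrkC gene, was at 167.1, 133.3 and 169.8 CPM in wild-type libraries and at 125.7, 107.7 and 92.2 CPM in the double knockout. The genotypes did not overlap, with wild-type replicate 2 the nearest to the double knockout and double knockout replicate 1 the nearest to the wild type. For Ntrk3, edgeR gave -0.53 as the log2 fold change (SE 0.124, 95% interval -0.81 to -0.25) and 0.0693 as the adjusted p. It was within the threshold in DESeq2, at an adjusted p of 0.00119, in edgeR with no filter on low counts, at 0.00687, without double knockout replicate 1, at 0.0471, and with wild-type replicate 2 and double knockout replicate 3 left out together, at 0.0142. Without wild-type replicate 1 the adjusted p was 0.242, the highest of the edgeR fits. Both Trk genes had their lowest library of each genotype in wild-type replicate 2 and double knockout replicate 3, which were also those with the lowest sum of neuronal markers in their group, at 5643 and 4598 CPM. The sums of hypothalamic and peripheral markers were lowest in the same libraries, and so was Ret. Over all tested genes, wild-type replicate 2 was lowest of its genotype for 36.9% and double knockout replicate 3 for 38.9%. The part of the neuronal share of the tissue, or of these other markers' cells, was not tested.

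The Trk genes are annotated with many transcripts, 10 for Ntrk2 and 20 for Ntrk3. Both genes are known to make forms with and without the kinase domain, which counts per gene do not separate. Their longest common runs of bases, 2 in number, were 23 long, and again no word of 50 bases occurred in both genes. One of them, from the coding sequence, is shown in capitals between 30 bases on each side, where the genes have the same base at 72 of 83 positions.
Ntrk2: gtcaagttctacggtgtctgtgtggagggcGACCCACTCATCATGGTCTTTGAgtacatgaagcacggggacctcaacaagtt
Ntrk3: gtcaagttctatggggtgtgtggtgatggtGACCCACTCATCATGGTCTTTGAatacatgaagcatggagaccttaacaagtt

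Bdnf and Ntf3 had no run longer than 17 bases in common. Upstream sequences of the genes, from RefSeq on build GRCm38.p6, were searched for TAATTA, a core that many homeodomain proteins bind and that reads the same on both strands. In the 250 bases before each annotated start, none of the 13 windows of 5 genes (Bdnf, Ntf3, Gdnf, Ntrk2 and Gfra1) held it. The share over 32851 windows of all genes was 4.84%, so 13 windows, many of them of Bdnf, are too few to show a difference from it. Ntrk3, Gfra2 and Ret had no entry.

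**Figure D3:**
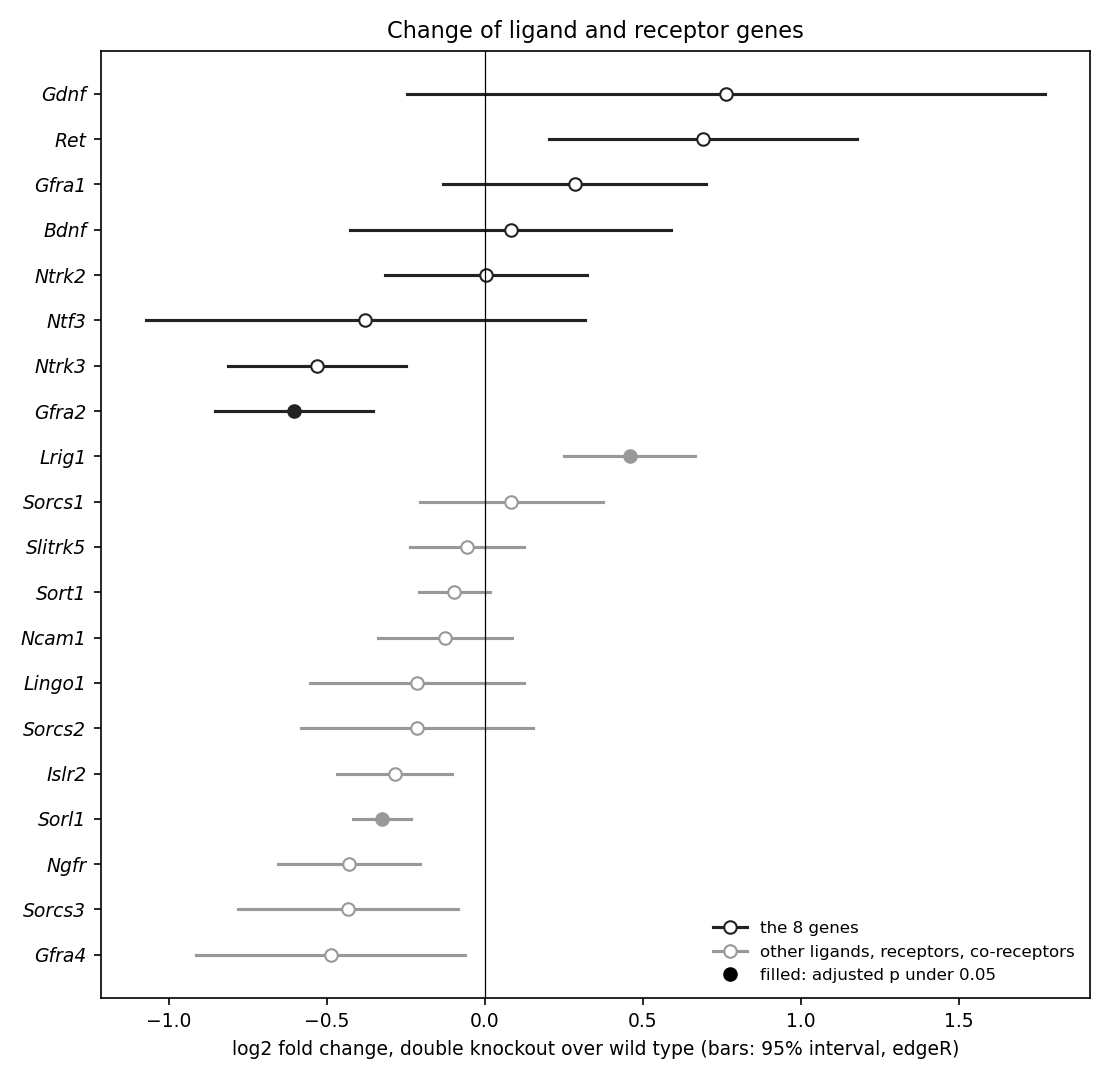
The log2 fold change (points) with its 95% interval (bars) from edgeR, for the 8 genes (black) and the 12 other ligand, receptor and co-receptor genes with a mean of 1 CPM or more (grey), with filled points for an adjusted p under 0.05. Filled points are Gfra2 and Sorl1 below 0 and Lrig1 above it, and the low-count ligand genes have the widest intervals.

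Ratios between 2 genes within a library do not depend on how libraries are scaled. The log2 ratio of Gfra1 to Gfra2 reads was 1.69, 1.97 and 2.12 in the wild type and 2.92, 3.14 and 2.34 in the double knockout, a mean difference of 0.87, and every double knockout library was above every wild-type one. That of Ntrk2 to Ntrk3 was -0.41, -0.35 and -0.55 against 0.0095, 0.29 and -0.061, a difference of 0.52, also without overlap. The largest difference was in the ratio of Gfra2 to Ret, which was 1.11, 1.67 and 0.83 in the wild type and -0.28, -0.30 and 0.29 in the double knockout, lower by 1.30 on the log2 scale. For these 3 ratios the exact permutation p, counting both directions, was 0.1, the smallest that 3 against 3 libraries can give, and 0.133 after adjustment over the 4 ratios computed. Every double knockout library was below every wild-type one in Gfra2 and above it in Ret. The lack of overlap and the p of the Gfra2 to Ret ratio follow from that and add no evidence to the single genes. The ratio of Gfra1 to Ret overlapped, at 3.13 ± 0.443 and 2.70 ± 0.125, with an exact permutation p of 0.2 (0.2 after adjustment). Its difference of -0.43 was -0.18 without wild-type replicate 2.

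**Figure D4:**
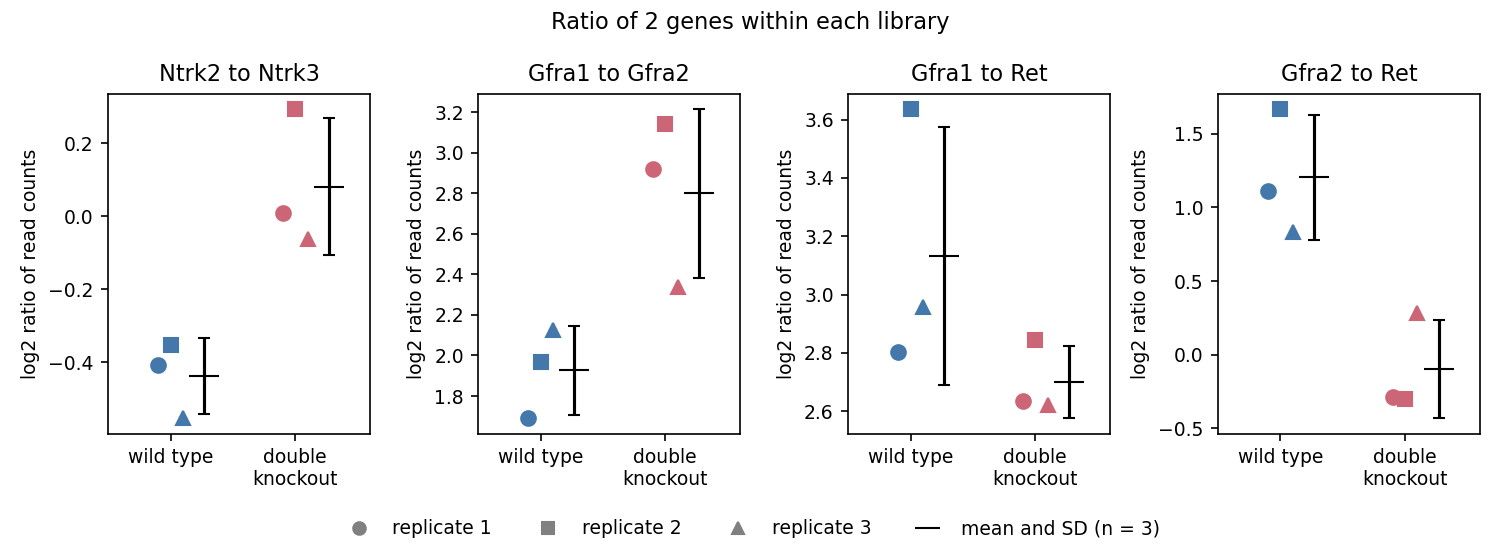
Log2 ratio of the read counts of 2 genes within each library, for 4 pairs of genes, with wild type in blue, double knockout in red, and black bars for mean and SD. The genotypes do not overlap for Ntrk2 to Ntrk3, Gfra1 to Gfra2 and Gfra2 to Ret, and overlap for Gfra1 to Ret.

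The wider pathway was described with 3 lists. They were chosen with earlier results of these data known, so their shares of called genes are a description and no independent test. Of 21 other ligands, receptors and co-receptors, 17 were tested and 2 (11.8%, beside 2.68% of all tested genes) called by edgeR, 1 higher and 1 lower. Their median log2 fold change was -0.15, beside -0.0016 over all tested genes, and 13 of the 17 had a negative value, as did 11930 of all 23628. Sorl1, which encodes a sorting receptor of the sortilin family, fell from 105.5, 105.4 and 105.5 CPM to 84.4, 84.0 and 84.0 CPM, with almost no spread within a genotype. On the log2 scale it fell by 0.33 (SE 0.0402; edgeR adjusted p = 0.00367), and it remained called in all 6 fits without a library. Lrig1, whose product restrains receptor tyrosine kinases, rose from 24.4, 29.1 and 26.7 CPM to 33.8, 40.4 and 36.0 CPM, a log2 fold change of 0.46 (SE 0.0911; edgeR adjusted p = 0.037). Of the 6 fits without a library, it was called only in that without double knockout replicate 3, with adjusted p up to 0.139, and had an adjusted p of 0.11 with the Y-linked covariate. Opposite-strand genes overlap exons of Sorl1 and Lrig1, so their counts are uncertain.

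The neurotrophin receptor gene Ngfr, whose product binds all neurotrophins, was at 7.75, 6.92 and 7.23 CPM in wild-type libraries and 5.53, 5.48 and 5.25 CPM in the double knockout, without overlap. Its adjusted p was 0.0654 in edgeR and 0.0115 in DESeq2. Islr2, whose product binds Trk and Ret receptors, was at 974.9, 976.9 and 1034 CPM and at 841.2, 883.2 and 725.9 CPM, with adjusted p of 0.133 in edgeR and 0.0246 in DESeq2. The persephin co-receptor gene Gfra4 was at 4.36 ± 0.753 and 3.11 ± 0.589 CPM and the sortilin family gene Sorcs3 at 20.5 ± 2.08 and 15.2 ± 3.18 CPM. Their adjusted p was 0.295 and 0.247 in edgeR. Neither overlapped between genotypes, as was so for 19.5% of all tested genes. For Gfra4, however, wild-type replicate 2 and double knockout replicate 1 were nearly equal, at 3.532 and 3.528 CPM. The adhesion molecule gene Ncam1, an alternative partner of the GDNF co-receptors, was at 818.0 ± 77.9 and 749.7 ± 71.8 CPM (edgeR adjusted p = 0.661). Sort1, Sorcs1, Sorcs2, Slitrk5 and Lingo1 did not pass either, with log2 fold changes of -0.096, 0.084, -0.22, -0.057 and -0.21. Gfra3, with 2 to 5 reads per library, and Gfral, with 0 to 2, were too low to be tested.

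Of 27 receptor adaptor and transducer genes, all tested, 3 (11.1%, beside 2.68%) were called, 1 higher and 2 lower, and the median log2 fold change was 0.049. Shc4, an adaptor gene of the Shc family, rose from 2.01, 2.07 and 2.28 CPM to 4.36, 3.90 and 3.88 CPM, a log2 fold change of 0.93 (SE 0.13; edgeR adjusted p = 0.00732). This call remained in all 6 fits without a library, but Eid1 overlaps exons of Shc4 on the opposite strand and its counts are uncertain. Dok5, which encodes a docking protein of Ret and Trk receptors, fell from 7.97, 8.31 and 6.64 CPM to 4.62, 4.82 and 3.46 CPM, a log2 fold change of -0.83 (SE 0.154; edgeR adjusted p = 0.0274). Sh2b2, another adaptor gene of receptor tyrosine kinases, fell from 39.6, 38.5 and 39.4 CPM to 32.0, 30.5 and 31.3 CPM (edgeR adjusted p = 0.0188). Dok5 lost its call without wild-type replicate 1 or 2 or double knockout replicate 1, and Sh2b2 in every fit without a library but that without double knockout replicate 3, with adjusted p up to 0.115 and 0.0902, and with the Y-linked covariate they had 0.091 and 0.0633.

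None of the 20 tested genes of a list of 21 targets of these receptors and of the MAP kinase cascade was called by edgeR, where 6 had an unadjusted p under 0.05, 4 higher and 2 lower, beside 13.3% of all tested genes. DESeq2 called 2 of the 20, Spry1 and Dusp4, beside 5.34% of the genes it adjusted, and limma-voom 0. The median log2 fold change was -0.042. The feedback inhibitor gene Spry1 was at 7.32, 5.46 and 10.5 CPM in wild-type libraries and 14.8, 18.9 and 12.6 CPM in the double knockout (edgeR adjusted p = 0.0733, or 0.0278 without wild-type replicate 3 and 0.0433 without double knockout replicate 3), and its counts are uncertain because an opposite-strand gene overlaps it. Dusp4, a MAP kinase phosphatase gene, was at 123.0 ± 18.3 and 165.1 ± 21.4 CPM (edgeR adjusted p = 0.145). Egr3, an early response transcription factor gene, was at 8.24, 7.25 and 7.58 CPM in wild-type libraries and at 3.61, 5.10 and 1.28 CPM in the double knockout (edgeR adjusted p = 0.19, or 0.0325 without double knockout replicate 3). The immediate early genes Fos, Egr1 and Arc did not pass, with log2 fold changes of -0.074, -0.15 and 0.24.

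Of the genes with a symbol and an average level of 1 CPM or more, those whose log2 CPM followed Gfra2 most closely over the 6 libraries were Slf2, Rell1 and Bcl11a, with Pearson's r of 0.996, 0.996 and 0.995. These values describe 6 points that fall into 2 genotypes. The sizes of the differences were unlike, with a log2 fold change of -0.078 for Slf2 and -0.37 for Rell1, neither of them called by edgeR. Bcl11a, a transcription factor gene, fell by 0.63 on the log2 scale (edgeR adjusted p = 4.01e-04).

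**Figure D5:**
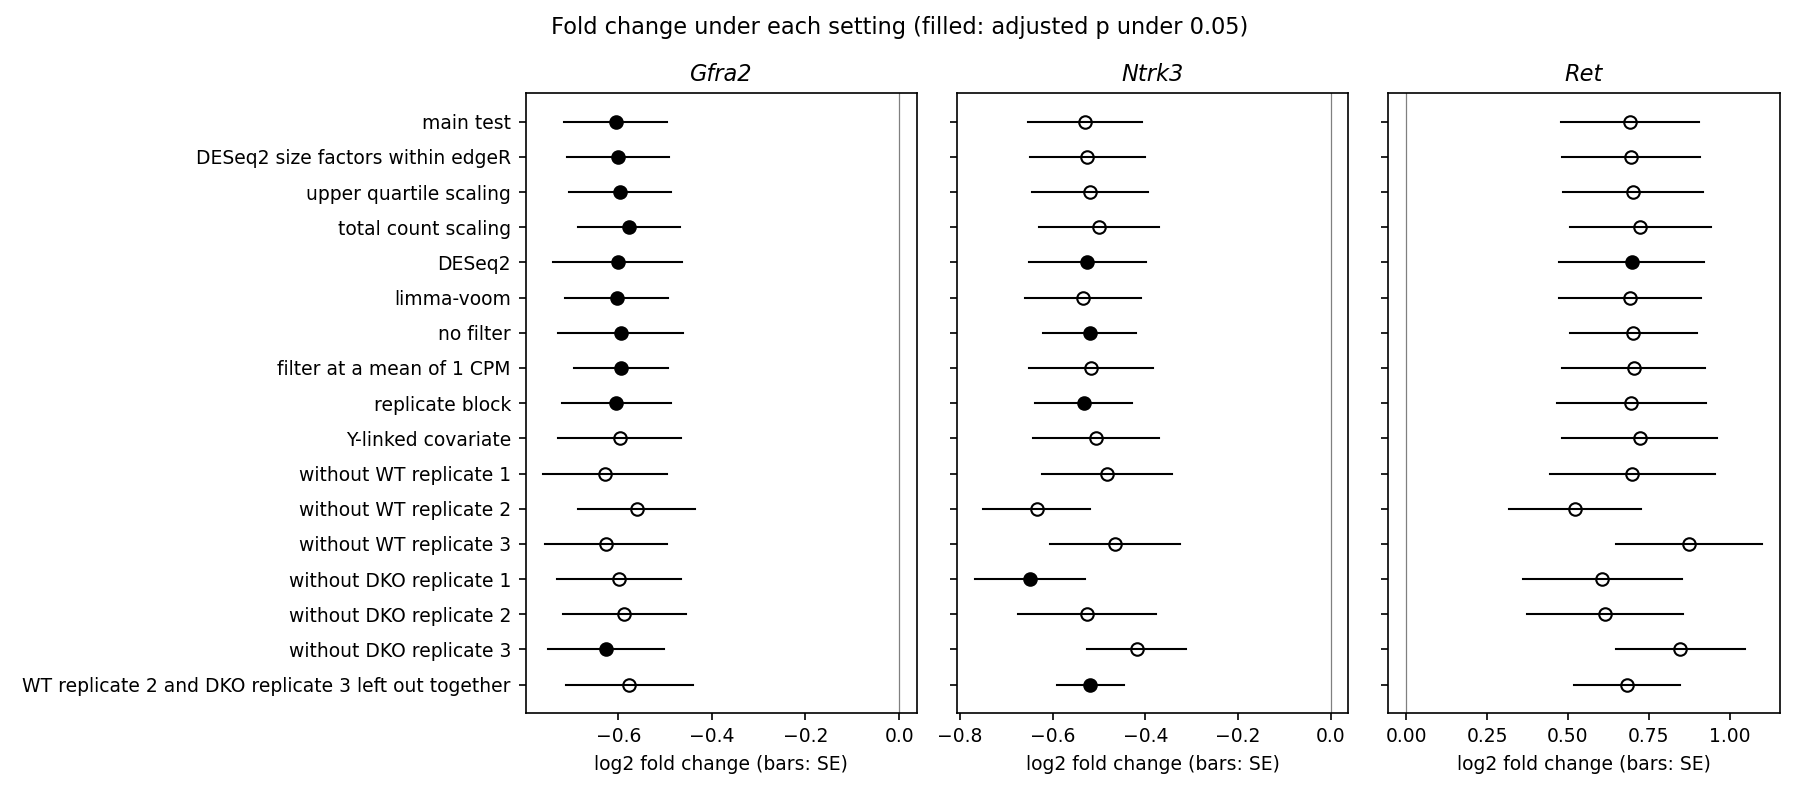
The log2 fold change of Gfra2, Ntrk3 and Ret (points, with SE as bars) under the main test and 16 other settings, with filled points for an adjusted p under 0.05; WT and DKO stand for wild type and double knockout. Gfra2 is filled in 9 of the other settings, Ntrk3 in 5 and Ret in 1, and no setting changes the side of 0 on which these genes lie.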

How the data were processed

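The authors deposited 1 table of raw read counts per gene, with a column per library, made with featureCounts on build GRCm39, per the submitters' processing notes. The aligner, annotation release, read length and strand settings are not given in the sources used here. Libraries were stranded total RNA depleted of ribosomal RNA, per the labels' protocols. Genes were filtered with filterByExpr (minimum count 10, minimum total 15), scaled by TMM and tested with edgeR 4.0.16 in R 4.3.3, with a prior count of 0.125 for fold changes, over all 6 libraries without a block. SE is the coefficient over the square root of F, and 95% intervals use the test's degrees of freedom. Alternatives were other scalings and filters, DESeq2 1.42.0, limma 3.58.1 (voom), the replicate block, a Y-linked covariate, stricter thresholds and leaving out each library. The edgeR step was tested on simulated data. Floors of 3 reads cover counting error only, since reads carry no molecular identifiers. Exon lengths came from GENCODE M21 (GRCm38), which holds 94.1% of the identifiers.

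The 8 genes and all lists were chosen with earlier results of these data known. The text names all 8 genes, up to 8 called genes of each pathway list by smallest adjusted p, ligands and receptors averaging 1 CPM or more, and the 3 genes most correlated with each called gene of the 8. Other names were chosen with the values in view. The labels do not say that replicate numbers mark a shared litter or day. Some items that this rule covers are not reported here.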

Additional observations from a re-analysis of the deposited data

How the results depend on the processing

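Over all tested genes, the 634 calls became 1162 with DESeq2, 358 with the Y-linked covariate, 275 at an adjusted p under 0.01, 180 where the change also had to reach 1 on the log2 scale in either direction, and 309 to 749 without a library, the highest without double knockout replicate 3 and at most 403 without each of the others. The 634 were 317 higher and 317 lower, and 390 higher and 256 lower when scaled by total counts. Of the 8 genes, 1 was called by the main edgeR test, 3 by DESeq2, 2 with no filter, 2 with the replicate block, 0 with the covariate, 0 at each stricter threshold, and 0 to 1 without a library. Of the genes of the wider lists, 5 were called, and 10 with DESeq2, 8 with no filter, 2 with the covariate, 2 at an adjusted p under 0.01, 0 with the fold change threshold, and 2 to 8 without a library.

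The log2 fold change of Gfra2 lost its call with the covariate (-0.60), with wild-type replicate 2 and double knockout replicate 3 left out together (-0.58), and in 5 of 6 fits without a library (-0.63 to -0.56). Ntrk3 gained a call with DESeq2 (-0.53), no filter (-0.52), the block (-0.53), those 2 libraries left out (-0.52) and in 1 fit without a library (range -0.65 to -0.42), and Ret with DESeq2 (0.70). Some values that had not passed the test changed sign, for Ntrk2 in limma-voom (-0.018), with the block (-0.014) and without single libraries (-0.10 to 0.17), for Bdnf without double knockout replicate 1 (range without a library -0.16 to 0.26), and for Ntf3, at -0.38 in the main test, with the 2 libraries left out (0.13). The cause of these changes was not tested. The fits without a library also had fewer samples. A filter at a mean of 1 CPM left out Ntf3 and Gdnf. The 4 ratios kept their sign in all settings run, but the difference in Gfra1 to Ret went from -0.43 to -0.18 without wild-type replicate 2 and -0.14 with the 2 libraries left out.

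Same-numbered libraries did not deviate together, with correlations of -0.069, -0.0022 and 0.0018 over all tested genes, so the block rests on a shared number only. Among the 8 genes it added the call of Ntrk3, at an adjusted p of 0.0484, and kept that of Gfra2, at 0.0464. In the wider lists it added the call of Dusp4, at 0.00866. Counts of 13 to 117 reads limit Bdnf, Ntf3 and Gdnf, whose intervals include 0 and a change of up to 0.59, 0.32 and 1.77 upward or 0.43, 1.07 and 0.25 downward on the log2 scale.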

Other observations

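The ligand and receptor genes were often lowest in double knockout replicate 3 among the libraries of its genotype. This was so for 6 of the 8 genes, the exceptions being Gdnf and Gfra2, and for 12 of 17 other ligand, receptor and co-receptor genes, beside 38.9% of all tested genes. In the wild type, replicate 2 was lowest for 3 of the 8 genes and for 10 of the 17, beside 36.9% of all tested genes. Double knockout replicate 3 also had the highest summed level of progenitor markers, 3306 CPM, and the lowest of neuronal markers, 4598 CPM, among the double knockout libraries. The part of these in the receptor levels was not tested.

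A trace of choroid plexus transcripts was seen in wild-type replicate 1, where Ttr reached 26.3 CPM. Its summed choroid markers were 37.7 CPM, above 14.3 and 17.1 CPM in the other wild-type libraries. In the double knockout the sums were 34.8 to 39.5 CPM with Ttr at 0.0577 to 0.139 CPM, since there Otx2, which other cells also express, made up 34.0 to 39.0 CPM.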
